A study of Mus musculus with 35 samples.

Results

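Mouse embryonic fibroblasts that received Jdp2, Glis1 and Sall4 without Esrrb were compared with fibroblasts that received Jdp2, Esrrb and Sall4 without Glis1. The comparison held 16 of the 35 RNA sequencing libraries of the study: the 8 libraries of the set without Esrrb and the 8 libraries of the set without Glis1, 1 library per arm on each of days 0 to 7. They were chosen by the arm and day in the sample names. The other libraries were 8 without Jdp2, 8 without Sall4 and 3 with the full 4-factor set (JEGS) from days 2, 4 and 6.

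All fibroblasts came from E13.5 embryos of male mice carrying an Oct4-GFP transgene, in which green fluorescence reports the pluripotency gene Oct4 (Pou5f1), on a CBA/CaJ × C57BL/6J background and crossed to SvJaeJ females of a 129 strain. At passage 2 they were infected with retroviruses for 48 hours and then kept in iCD3 medium with a Rock inhibitor. The virus enters dividing cells at random, so each library is RNA from a bulk population in which single cells may hold different factors and copy numbers. Each arm had a single library per day. Nothing in the labels tells whether those libraries came from separate cultures, so p-values reflect only the spread among libraries. That spread may be technical, and it also holds any change with day in the difference between the arms. A gene whose arms move apart over the days can therefore fail the test of the difference averaged over the 8 days.

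Esrrb is an orphan nuclear receptor of the estrogen-related receptor family. It belongs to the pluripotency network of embryonic stem cells, and its relatives Esrra and Esrrg activate genes of fatty acid oxidation, the tricarboxylic acid (TCA) cycle and respiration together with co-activators such as Ppargc1a. Glis1 is a zinc finger protein whose DNA-binding domain resembles that of the GLI proteins, the transcription factors at the end of the Hedgehog pathway, and it promotes the early phase of reprogramming. The comparison asks how the 3-factor mixtures differ when either of these proteins is the missing one. Both mixtures lack a factor, so a difference does not say by itself which arm moved. For that reason the levels without Jdp2 and without Sall4, where both Esrrb and Glis1 were delivered, are given for some genes beside those of the compared arms.

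Library totals were 1377656 to 1651712 expected counts without Esrrb and 1672386 to 2622470 without Glis1, ranges that did not overlap. Fibroblast markers (12 genes, including Thy1, Pdgfra and Col1a1) summed to 1467 to 12620 CPM (counts scaled to a common library size) without Esrrb and 1785 to 15630 CPM without Glis1, and none was at 0 in either arm. Mean fragment length was 201.6 to 205.7 bases without Esrrb and 202.2 to 213.3 bases without Glis1. Since fragment length moved with the arm, the counts of genes were also computed with it as a covariate. The test was edgeR's quasi-likelihood test with day as a factor, and a gene passed when its Benjamini-Hochberg adjusted value, called the edgeR adjusted p here, was under 0.05. Fold changes are log2 of the level without Esrrb over the level without Glis1, and levels are CPM after TMM scaling. The value after ±, called the standard error (SE), is the absolute fold change divided by the square root of the test's F statistic. It was not estimated separately, and where an arm has few counts it can be smaller than the counting error.

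Each arm lacked the factor its name says. Esrrb was at 7.06 to 57.9 CPM (median 12.4) without Esrrb and at 4014 to 8359 CPM (median 6219) without Glis1, a log2 fold change of -8.67 ± 0.33 (SE, n = 8 per arm, edgeR adjusted p = 1.6e-09). Glis1 was at 199 to 534 CPM (median 340) without Esrrb and at 0 to 4.44 CPM (median 0.505) without Glis1, a log2 fold change of 8.37 ± 0.45 (edgeR adjusted p = 2.9e-08). Neither gene's ranges overlapped. The retained factors differed as well. Jdp2, a repressor of AP-1 dependent transcription, was at 428.5 to 1615 CPM (median 830) without Esrrb and at 1508 to 3540 CPM (median 2710) without Glis1, lower without Esrrb on 8 of 8 days, by -1.53 ± 0.19 on the log2 scale (edgeR adjusted p = 4.5e-05). Sall4, a zinc finger protein that recruits the NuRD complex, was at 1861 to 5403 CPM (median 3086) and 3140 to 5571 CPM (median 4340), and its log2 fold change of -0.33 ± 0.16 did not pass (edgeR adjusted p = 0.12). Delivered and endogenous transcripts of a factor were counted together. The arms thus differed in their Jdp2 level besides the missing factor, and these cannot be told apart in the results that follow.

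**Figure D1:**
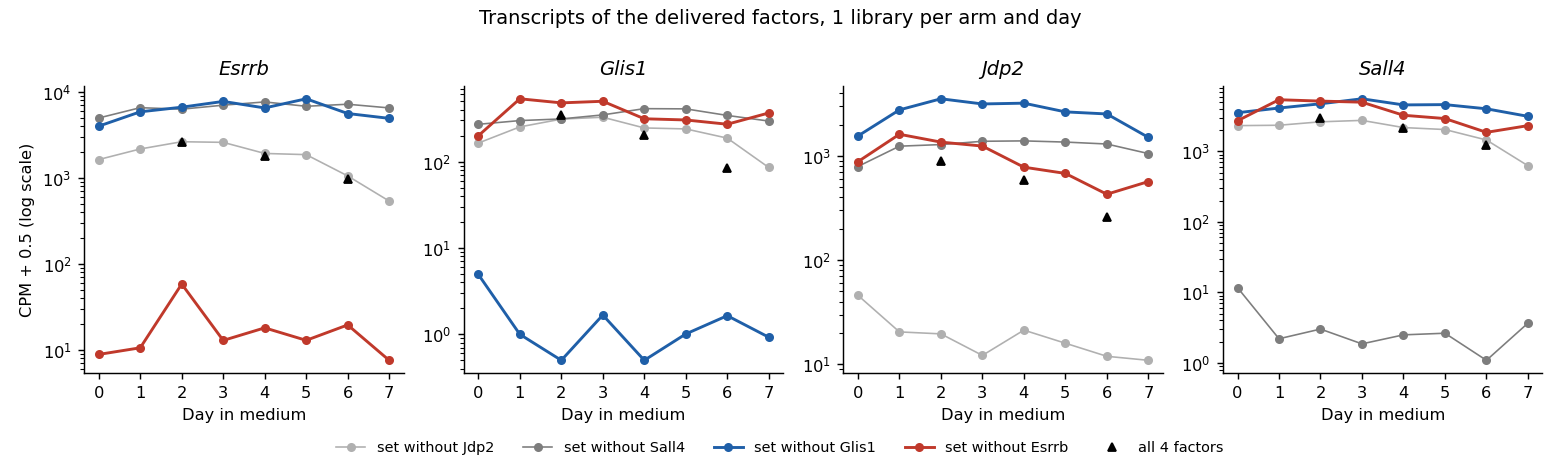
CPM of the 4 delivered factors (CPM + 0.5, log axis) against day for the 5 arms, 1 point per library. Esrrb is low in the arm without it and Glis1 in the arm without that factor, and Jdp2 lies lower without Esrrb than without Glis1 on all 8 days.

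Of 16801 genes tested, 6108 passed (36.4%): 2835 (16.9%) were higher and 3273 (19.5%) lower without Esrrb. The counts of the gene lists below are to be read against these shares. The log2 fold change was at least 3 in either direction for 884 of them, 429 higher and 455 lower, and 3210 differed in the same direction on all 8 days. With fragment length as a covariate 2284 genes passed, 2276 of which were also among the 6108. On log2(TPM + 1) values 57.2% of the called genes were higher, against 46.4% here, and the median of all genes shifted to 0.111 from -0.02. For 679 (24%) of the higher genes both the arm without Jdp2 and the arm without Sall4 lay nearer to the level without Esrrb, for 834 (29.4%) both lay nearer to the level without Glis1, and for 1322 (46.6%) they lay on either side. The corresponding numbers for the lower genes were 948 (29%), 1025 (31.3%) and 1300 (39.7%). In bulk RNA, fewer cells of a type and less RNA per cell cannot be told apart.

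Ins2 and the Dcpp genes were among the genes furthest higher without Esrrb. Ins2, which encodes insulin, was at 19 to 567 CPM (median 172) without Esrrb and at 0 to 0.986 CPM (median 0) without Glis1, a log2 fold change of 9.07 ± 0.54 (edgeR adjusted p = 6e-08). The salivary demilune cell and parotid proteins Dcpp1, Dcpp2 and Dcpp3 were higher too. Dcpp1 was at 11.4 to 513 CPM (median 229) without Esrrb and had no count in the 8 libraries without Glis1, at least 1375-fold higher against a floor of 3 counts over the arm. Dcpp2 had 4174 counts against 1, a ratio of 5272 (95% counting interval 946 to 208300). Counting can divide reads shared by these near-identical paralogs, so their separate levels are uncertain. Dcpp3 had 3704 counts against 3, a ratio of 1559 (533 to 7565). In the arms with both factors, median Dcpp1 was 8.58 CPM without Jdp2 and 3.06 CPM without Sall4, well under the 229 CPM without Esrrb, and median Ins2 was 27.1 and 45.7 CPM.

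Several other genes were close to absent without Glis1. Wif1, a secreted inhibitor of Wnt ligands, was at 88.2 to 245 CPM (median 123) without Esrrb and 0 to 2.46 CPM (median 0.718) without Glis1 (7.16 ± 0.34, edgeR adjusted p = 7.2e-09). Sox18, a transcription factor of blood and lymphatic vessels, was at 11.4 to 80.8 CPM (median 44.4) and 0 to 1.28 CPM (median 0), a log2 fold change of 7.36 ± 0.41. Neither gene's ranges overlapped between the arms. Others in the same class were the cartilage matrix gene Cilp at 8.12 ± 0.36, the transmembrane collagen Col13a1 at 7.75 ± 0.33 and the muscle myosin light chain kinase Mylk2 at 7.73 ± 0.50. The short-chain collagen Col8a2 was higher by 7.15 ± 0.84 but was present without Glis1 on day 0, at 23.66 CPM. The interleukin receptor gene Il9r had no count without Glis1 and was at least 118.7-fold higher. Dlx4os, a transcript antisense to the homeobox gene Dlx4, had 485 counts against 2, a ratio of 306.3 (84.33 to 2536), and without strand information its reads cannot be told from those of Dlx4. By mean log2 level both other arms lay nearer to the level without Esrrb for Wif1, Il9r and Dlx4os. For Sox18, Cilp, Col13a1 and Mylk2 they lay on either side, with median Col13a1 at 15.9 CPM without Jdp2 and 1.09 CPM without Sall4. For Col8a2 both lay nearer to the level without Glis1, at medians of 4.88 CPM without Jdp2 and 0.209 CPM without Sall4.

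In the opposite direction, Ace, the angiotensin-converting enzyme, was at 0 to 1.69 CPM (median 0.609) without Esrrb and 7.39 to 589.5 CPM (median 234) without Glis1, a log2 fold change of -8.55 ± 0.27 (edgeR adjusted p = 3.3e-10). Col4a3 and Col4a4, neighbouring genes for basement membrane collagen chains, were lower together. Col4a3 had 2 counts without Esrrb and 983 without Glis1, and Col4a4 was at 0 to 1.73 CPM (median 0.631) against 15.0 to 71.0 CPM (median 43.6), by -5.59 ± 0.36 on the log2 scale (edgeR adjusted p = 1.3e-07). Gpx6, a glutathione peroxidase, had 1 count without Esrrb and 1203 without Glis1, an inverse ratio of 952.5 (170.6 to 37650). Cyp4b1, a cytochrome P450 enzyme, had none and was at least 69.7-fold lower. The surface proteins Ly6d (-8.73 ± 0.38) and Psca (-7.48 ± 0.63), the mitochondrial carrier Slc25a34 (-7.92 ± 0.42), the proteoglycan Bcan (-7.26 ± 0.39) and the potassium channel Kcnk3 (-7.02 ± 0.58) were lower too, as were Mybpc2, with 2 counts against 382, and B4galnt3, with 1 against 235. Ace, Col4a3, Gpx6 and Slc25a34 lay nearer to the level without Esrrb in both other arms: median Ace was 2.37 CPM without Jdp2 and 1.62 CPM without Sall4.

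The Hedgehog pathway is the route that uses the GLI proteins related to Glis1. Its ligands release Smo from the receptor Ptch1, and active GLI proteins then raise Ptch1 and Hhip as feedback. Of 15 listed members tested, 7 were higher and 0 lower without Esrrb, with a median log2 fold change of 1.12 beside -0.02 over all genes. The receptor gene Ptch1 was at 85.8 to 609.5 CPM (median 302) without Esrrb and 12.2 to 35 CPM (median 21.3) without Glis1, 3.76 ± 0.39 on the log2 scale (edgeR adjusted p = 8.7e-06). All 8 libraries without Esrrb were above all 8 without Glis1. The median was 85.0 CPM without Jdp2 and 131 CPM without Sall4, and the 3 JEGS libraries had 106, 181 and 90.1 CPM, values between the medians of the compared arms.

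Smo, the signal transducer, was at 102 to 153 CPM (median 132) without Esrrb and 30.6 to 106 CPM (median 42.1) without Glis1, a log2 fold change of 1.42 ± 0.24 (edgeR adjusted p = 0.00039). Sufu, which holds GLI proteins inactive, was 0.82 ± 0.17 higher with ranges that did not overlap (62.2 to 98.5 and 31.7 to 62.1 CPM, edgeR adjusted p = 0.0019). Foxl1, a mesenchymal forkhead target of the pathway, was at 1.18 to 19.08 CPM (median 7.55) and 0 to 1 CPM (median 0), again without overlap (4.25 ± 0.70, edgeR adjusted p = 0.00035). Median Foxl1 was 1.27 CPM without Jdp2 and 3.20 CPM without Sall4, and the JEGS libraries had 0, 0.56 and 0 CPM. Hhip, the decoy receptor (2.84 ± 0.62), and Gli2 (1.27 ± 0.37) also passed, Hhip not with fragment length as a covariate. Hhip without Esrrb was highest on days 0 and 1, at 53.1 and 27.8 CPM. Its median of 3.79 CPM there was under those without Jdp2 (10.8 CPM) and without Sall4 (35.5 CPM). Gli1, the most direct target of the pathway, stayed at or under 4.03 CPM in both arms and did not pass (0.44 ± 0.73, edgeR adjusted p = 0.67). The separate test of the change of the difference per day called 1299 genes (7.73%), 534 (3.18%) rising and 765 (4.55%) falling without Esrrb relative to without Glis1. Of the 15 members, 6 rose (Gli3, Smo, Boc, Cdon, Gas1 and Kif7) and 1 fell. The count was 4 higher with fragment length as a covariate, and over days 0 to 3 there were 5 higher and 2 lower.

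**Figure D2:**
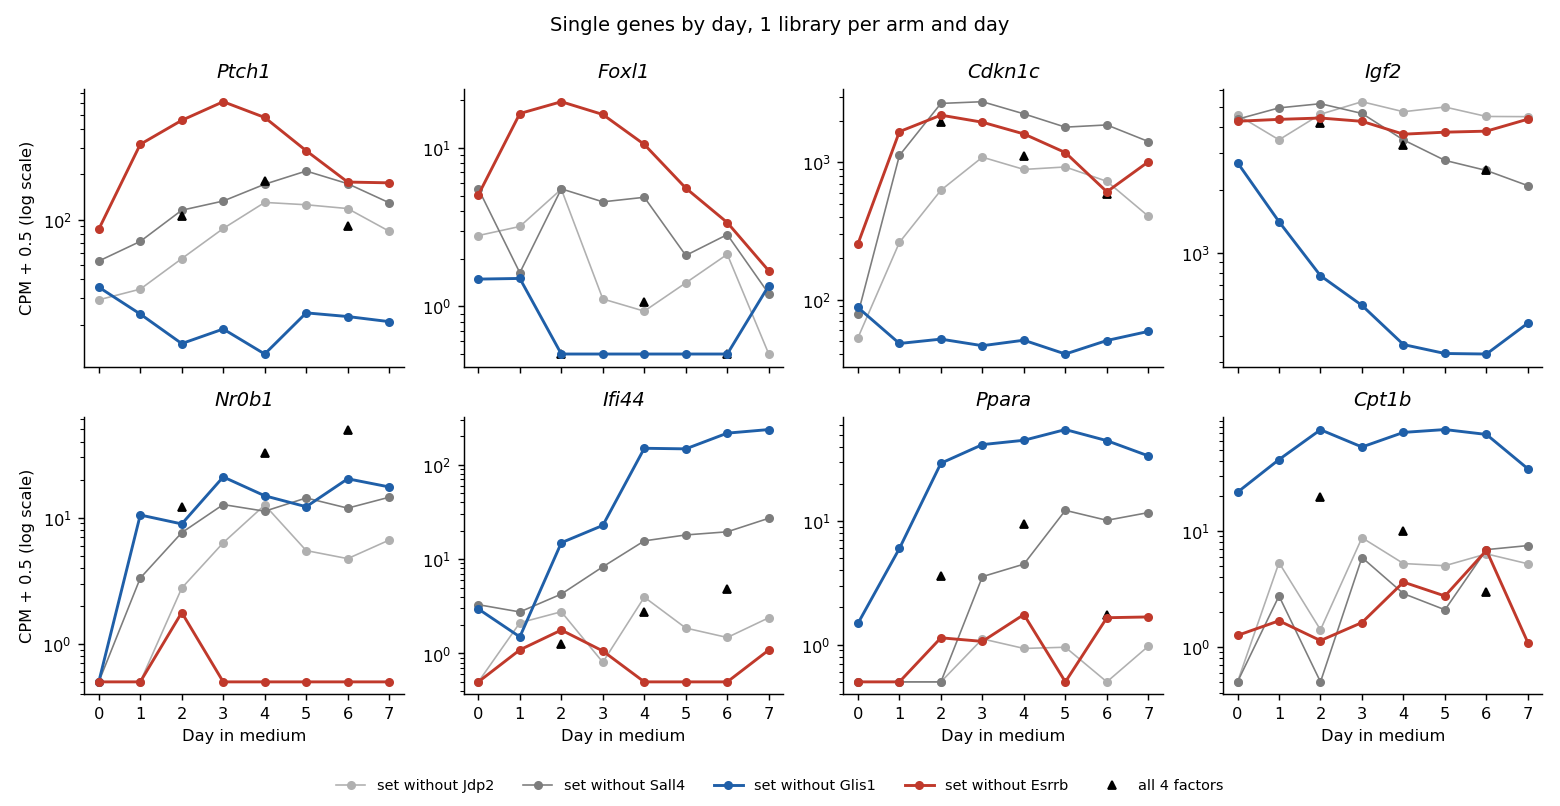
CPM + 0.5 of Ptch1, Foxl1, Cdkn1c, Igf2, Nr0b1, Ifi44, Ppara and Cpt1b (log axis) against day for the 5 arms, 1 point per library. The arm without Esrrb is above the arm without Glis1 on all 8 days for Ptch1, Foxl1, Cdkn1c and Igf2, and below it on all 8 days for Ifi44, Ppara and Cpt1b.

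Genes of fatty acid oxidation, the mitochondrial pathway that breaks down acyl chains, were lower without Esrrb. Of 22 tested, 19 were lower and 0 higher (background 19.5% lower), 14 of them on all 8 days, with a median log2 fold change of -0.96. Ppara, the nuclear receptor that activates this pathway, was at 0 to 1.25 CPM (median 0.599) without Esrrb and 0.986 to 54.5 CPM (median 37.1) without Glis1, -5.58 ± 0.36 on the log2 scale (edgeR adjusted p = 1.3e-07). Pdk4, a kinase that closes pyruvate dehydrogenase and spares glucose, was at 1.18 to 16.7 CPM (median 5.64) against 94.6 to 318 CPM (median 221), a log2 fold change of -4.98 ± 0.25 (edgeR adjusted p = 1.4e-08). Cpt1b, which loads acyl chains for entry into mitochondria and is best known in muscle, was at 0.588 to 6.34 CPM (median 1.16) against 21.2 to 74.9 CPM (median 60.3), a log2 fold change of -4.80 ± 0.30 (edgeR adjusted p = 8.3e-08). Pdk4 and Cpt1b did not overlap between the arms, and Ppara overlapped because its lowest library without Glis1 was at 0.986 CPM.

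The other arms sided differently for these genes. Median Cpt1b was 4.74 CPM without Jdp2 and 2.32 CPM without Sall4, near the level without Esrrb, whereas median Pdk4 was 44.5 and 333 CPM, on the log scale nearer to the level without Glis1. The enzymes of the cycle itself changed by less. Hadha, part of the trifunctional protein, was at 115 to 152 CPM without Esrrb and 271 to 502 CPM without Glis1 (-1.51 ± 0.15, edgeR adjusted p = 6.5e-06). Acadvl and Acadm, dehydrogenases for very long and medium chains, were lower by -1.84 ± 0.26 and -1.49 ± 0.18, and Cpt1a, the widely expressed isoform, by -1.72 ± 0.26. Cpt2 and Acads did not pass. The count was 13 of 22 with fragment length as a covariate and 14 of 22 over days 0 to 3.

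The TCA cycle and respiratory chain moved the same way by smaller amounts. In the TCA cycle list 13 of 17 genes were lower and 0 higher without Esrrb, with a median of -0.58. Ogdh, a subunit of the oxoglutarate dehydrogenase complex, was at 191 to 399 CPM (median 259) without Esrrb and 363 to 1016 CPM (median 846) without Glis1 (-1.51 ± 0.19, edgeR adjusted p = 3.8e-05). Sucla2, of succinate-CoA ligase, was lower by -1.43 ± 0.18, Dlst by -0.96 ± 0.15 and Dld by -0.82 ± 0.13, and of these 4 genes only Ogdh had overlapping ranges. Among nuclear genes of oxidative phosphorylation 27 of 33 were lower and 0 higher, with a median of -0.56. Cox5a, a cytochrome c oxidase subunit, was at 45.9 to 133 CPM (median 84.4) against 187 to 424 CPM (median 336), a log2 fold change of -1.86 ± 0.20 (edgeR adjusted p = 9.5e-06), with no overlap. Cox4i1 (-1.15 ± 0.16), Cycs (-1.13 ± 0.23), Atp5g1 (-1.09 ± 0.17) and Cox6c (-1.06 ± 0.18) followed.

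The 13 mitochondrially encoded genes gave 10 lower and 0 higher, with a median of -0.86. mt-Nd2 was at 985 to 2761 CPM (median 2098) without Esrrb and 1936 to 5155 CPM (median 4101) without Glis1, and mt-Atp8, mt-Nd4 and mt-Cytb were lower by -0.96 ± 0.11, -0.94 ± 0.13 and -0.88 ± 0.12. The share of all counts on mitochondrial genes was 1.61 to 3.64% without Esrrb and 2.74 to 6.07% without Glis1. The value of mt-Co2 (-5.52 ± 1.16) rested on libraries that ranged from 0 to 142 CPM within 1 arm. For oxidative phosphorylation the count fell to 7 of 33 with fragment length as a covariate and to 6 of 33 over days 0 to 3, and for the TCA cycle to 8 of 17 in either case. The medians moved less: -0.61 and -0.51 for oxidative phosphorylation and -0.69 and -0.56 for the TCA cycle.

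Esrra and Esrrg, the receptors most like Esrrb, were lower without Esrrb than without Glis1. Of 9 estrogen-related receptors and co-activators tested, 3 were lower and 0 higher, a share near the 36.4% called over all genes. Esrra was at 25.9 to 41.8 CPM (median 37.9) without Esrrb and 38.5 to 78.4 CPM (median 74.6) without Glis1, -0.85 ± 0.19 on the log2 scale and lower on 8 of 8 days (edgeR adjusted p = 0.0028). Esrrg was at 0 to 5.76 CPM against 2.00 to 14.4 CPM (-1.94 ± 0.49). The other arms, which received Esrrb, differed between these genes. Median Esrra was 50.55 CPM without Jdp2 and 100.8 CPM without Sall4, and by mean log2 level both arms lay nearer to the arm without Glis1. The higher Esrrg level was not shared: its median was 1.385 CPM without Esrrb, 0.914 CPM without Jdp2, 0.199 CPM without Sall4 and 0 CPM in JEGS. The co-activator Ncoa1 was lower by -1.09 ± 0.27. Ppargc1a stayed at or under 3.49 CPM in both arms and did not pass (-0.20 ± 0.49). A single member, or 1 of 9, was lower with fragment length as a covariate.

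Promoter windows were read to see which letters lie in front of these genes. The windows run from 250 bases before to 50 after the RefSeq start in GRCm38.p6 and were searched on both strands. The estrogen-related receptor element TCAAGGTCA lay in 0 of 19 matched fatty acid oxidation promoters, 0 of 15 of the TCA cycle and 2 of 23 (8.7%) of oxidative phosphorylation (Sdhd and Atp5g3), against 126 (0.466%) of 27025 promoters. Its shorter core AAGGTCA, which lies within the longer element, was in 1 of 19 (Acadm), 1 of 15 (Ogdh) and 2 of 23, against 1454 (5.38%) of all. The Acadm window, chr3:153944594-153944893 on the minus strand, is shown because it is the fatty acid oxidation member with a match, with the core in capitals as it reads on the opposite strand.
Acadm: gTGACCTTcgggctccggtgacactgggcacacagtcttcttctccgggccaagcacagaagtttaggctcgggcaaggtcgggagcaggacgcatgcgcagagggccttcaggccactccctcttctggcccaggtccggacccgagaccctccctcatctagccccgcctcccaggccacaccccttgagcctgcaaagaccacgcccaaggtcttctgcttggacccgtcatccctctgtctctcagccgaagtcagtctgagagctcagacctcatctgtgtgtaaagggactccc
A match is a description of the sequence and not a binding site. The GLI element GACCACCCA was in 0 of 10 matched Hedgehog promoters and in 78 (0.289%) of all.

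Interferon-stimulated genes form the antiviral programme that cells switch on when Stat2 and Irf9 are activated, and their products sense or block viral RNA. Of 32 tested, 26 were lower and 0 higher without Esrrb, with a median log2 fold change of -2.94, and the difference per day fell for 28. The arms started together: the mean log2(CPM + 1) of the list was 2.21 without Esrrb and 2.20 without Glis1 on day 0. By day 7 it was 1.69 without Esrrb and 6.52 without Glis1, after 1.62 on day 1 and 3.01 on day 2 in the latter. On day 7 the list mean was 2.42 without Jdp2 and 3.33 without Sall4. Of the 26 genes, 21 had both other arms nearer to the level without Esrrb and 0 had both nearer to the level without Glis1.

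Among effectors, Ifi44 was at 0 to 1.27 CPM (median 0.281) without Esrrb and 1 to 236 CPM (median 84.7) without Glis1, -7.64 ± 0.63 on the log2 scale (edgeR adjusted p = 1.1e-06). Oasl1 and Oas2, of the family that senses double-stranded RNA, were lower by -5.55 ± 0.58 and -5.70 ± 0.73. Ifit1, which binds foreign RNA ends, was at 0 to 11.8 CPM (median 2.28) and 3.50 to 333 CPM (median 110), and Isg15, a ubiquitin-like modifier, at 0 to 10.6 CPM (median 1.69) and 0.5 to 171 CPM (median 44.7). These values show a large spread within the arm without Glis1, where Isg15 was at 4.436 CPM on day 0, 0.5 CPM on day 1 and 170.6 CPM on day 7. Usp18, which removes Isg15 from proteins (-4.88 ± 1.01), and the antiviral GTPase Mx2 (-4.30 ± 0.79) were lower too. The RNA sensor Ddx58 was at 10.7 to 34.4 CPM (median 26.0) and 49.5 to 348 CPM (median 241), with no overlap (-2.90 ± 0.40, edgeR adjusted p = 9.1e-05). Stat2 was lower by -2.69 ± 0.38, Irf9 by -1.23 ± 0.29 and Irf7 by -3.34 ± 1.04. Averaged over the 8 days, Mx1, Oas3, Dhx58, Cmpk2, Gbp2 and Cxcl10 did not pass.

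**Figure D3:**
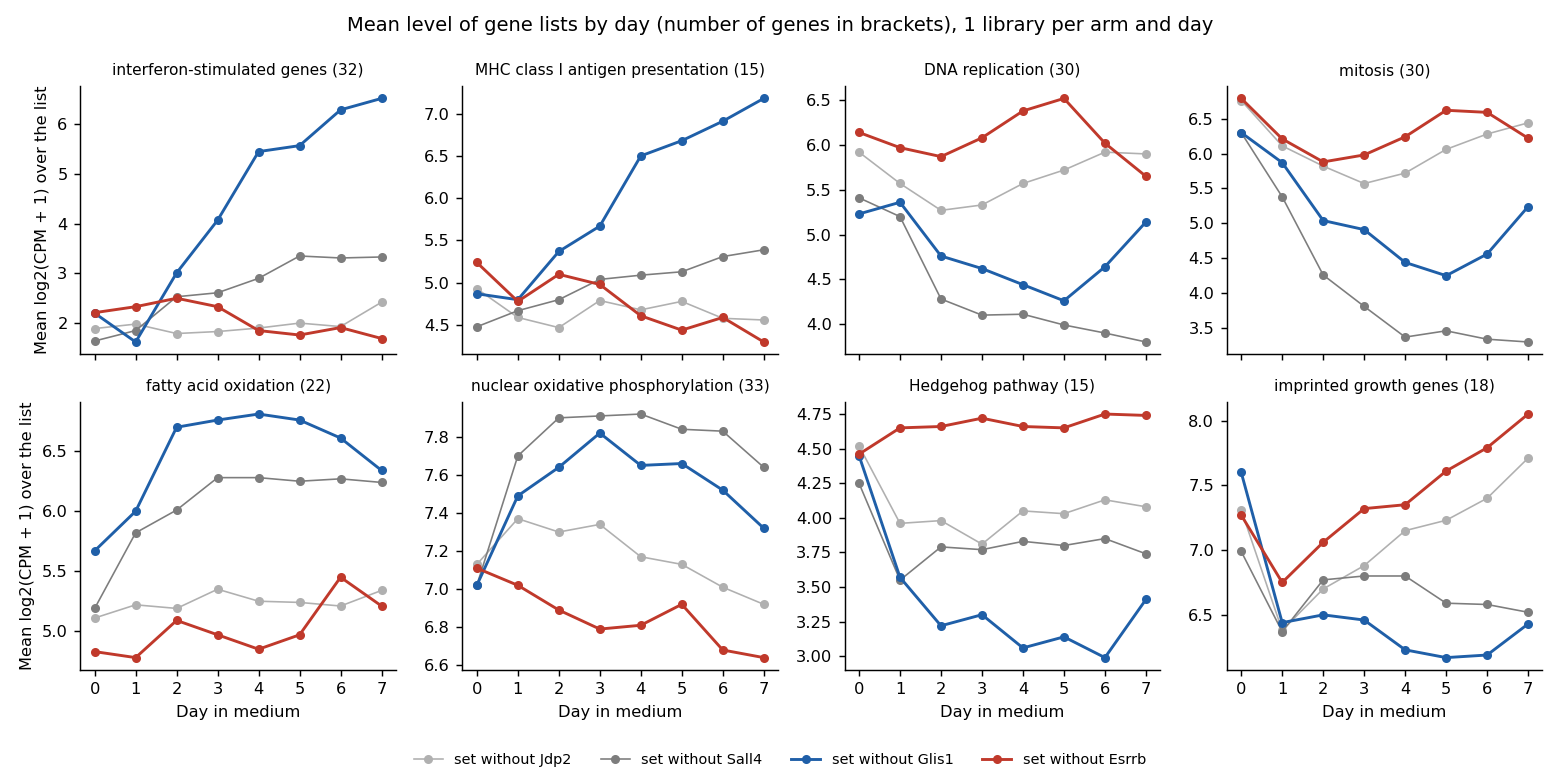
Mean log2(CPM + 1) of 8 gene lists against day in the 4 leave-out arms, 1 point per library. The interferon list of the arm without Glis1 goes from 2.20 on day 0 to 6.52 on day 7, while the arm without Esrrb ends at 1.69.

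The interferon-stimulated response element, searched as GAAA, any 2 bases and GAAA on both strands, was in 14 of 23 matched promoters of this list (60.9%) and in 1079 (3.99%) of 27025 promoters. The list holds genes known to respond to interferon, and the count takes members that passed and members that did not. The share therefore describes the list and not the difference between the arms. The 3 shown are an effector with several matches (Isg15, chr4:156200769-156201068, minus strand), the RNA-binding Ifit1 (chr19:34640639-34640938, plus strand) and the regulator Stat2 (chr10:128270248-128270547, plus strand), together with B2m of the class I complex (chr2:122147437-122147736, plus strand), with matches in capitals. They were chosen after their values were seen.
Isg15: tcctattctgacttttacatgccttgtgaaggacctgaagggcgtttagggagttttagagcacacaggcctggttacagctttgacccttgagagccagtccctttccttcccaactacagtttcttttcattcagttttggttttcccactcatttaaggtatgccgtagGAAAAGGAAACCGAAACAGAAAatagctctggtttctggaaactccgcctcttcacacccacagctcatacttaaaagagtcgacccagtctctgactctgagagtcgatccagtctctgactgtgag
Ifit1: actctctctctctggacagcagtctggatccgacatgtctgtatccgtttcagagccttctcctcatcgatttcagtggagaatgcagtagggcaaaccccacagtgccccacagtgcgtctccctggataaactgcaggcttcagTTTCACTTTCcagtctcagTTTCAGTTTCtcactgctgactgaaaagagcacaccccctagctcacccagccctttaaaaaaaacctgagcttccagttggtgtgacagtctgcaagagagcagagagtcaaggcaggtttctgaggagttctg
Stat2: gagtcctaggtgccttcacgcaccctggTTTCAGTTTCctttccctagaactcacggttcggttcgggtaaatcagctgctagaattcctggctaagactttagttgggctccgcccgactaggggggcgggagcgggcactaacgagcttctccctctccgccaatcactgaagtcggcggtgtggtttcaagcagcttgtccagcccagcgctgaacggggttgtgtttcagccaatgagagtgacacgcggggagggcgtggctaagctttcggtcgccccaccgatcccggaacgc
B2m: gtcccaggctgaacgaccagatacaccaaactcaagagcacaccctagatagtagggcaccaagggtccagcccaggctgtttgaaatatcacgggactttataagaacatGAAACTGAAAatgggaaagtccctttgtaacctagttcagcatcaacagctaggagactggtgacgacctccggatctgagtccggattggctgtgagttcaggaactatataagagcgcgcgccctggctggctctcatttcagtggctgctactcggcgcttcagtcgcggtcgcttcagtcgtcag
The 3 matches of Isg15 overlap and begin 78 bases before the start. Those of Ifit1 (2 matches, from 104 bases before the start) and Stat2 (1 match, 222 bases before) read on the opposite strand, and that of B2m lies 139 bases before the start.

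Antigen presentation on class I molecules, which interferon is known to raise, was lower too. Of 15 genes tested, 10 were lower and 0 higher without Esrrb, with a median of -1.40, and 12 fell per day. B2m, the constant chain of the complex, was at 68.3 to 284 CPM (median 102) without Esrrb and 215 to 1038 CPM (median 390) without Glis1 (-1.92 ± 0.36, edgeR adjusted p = 0.00095). Its difference fell by -0.49 ± 0.06 log2 per day. Nlrc5, the activator of class I genes, was lower by -3.60 ± 0.65, the immunoproteasome subunit Psmb8 by -2.06 ± 0.52, and the heavy chain genes H2-T23 and H2-D1 by -3.03 ± 0.59 and -1.90 ± 0.57, with reads shared among H2 genes divided by the counting. The difference of H2-D1 did not pass without day 4 (edgeR adjusted p = 0.061), 5, 6 or 7. Psmb10 and the chaperone Pdia3, at 0.04 and 0.20, did not pass. The element above was in 3 of 13 matched promoters (23.1%): B2m, Erap1 and H2-T23.

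Among 12 chemokines and interleukins, 5 were lower and 1 higher. Cxcl16, a membrane-bound chemokine, was at 0 to 6.07 CPM (median 4.27) without Esrrb and 17.6 to 40.8 CPM (median 24.3) without Glis1 (-3.08 ± 0.37, edgeR adjusted p = 2.7e-05). Il11, a cytokine of the interleukin 6 family, went the other way, at 2.82 to 221 CPM (median 13.0) against 0 to 1.20 CPM (median 0.468), a log2 fold change of 5.11 ± 0.72. The ranges of either gene did not overlap. Ccl5 had 3 counts against 87, and Cxcl1 (-2.62 ± 0.79) and Lif (-0.91 ± 0.33, edgeR adjusted p = 0.047) were also lower. The difference of Lif did not pass when any 1 of days 1 to 7 was left out (edgeR adjusted p = 0.11 without day 7), and that of Il11 not with fragment length as a covariate. With fragment length as a covariate the counts of lower genes fell to 7 of 32 interferon genes, 0 of 15 class I genes and 1 of 12 chemokines. The medians with this covariate were -2.32, -1 and -0.51. Over days 0 to 3 there were 6 lower and 1 higher interferon genes and 1 lower class I gene. Over days 4 to 7, 30 of 32 interferon genes (median -4.81) and 12 of 15 class I genes (median -2.83) were lower, and 0 of either were higher.

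The 7 macrophage markers, among them Csf1r, Cd68 and Ptprc, summed to 5.18 to 24.3 CPM without Esrrb and 10.5 to 24.9 CPM without Glis1. None was at 0 in either arm, and their part in the result was not tested. Of 13 macrophage genes tested 2 were lower, Csf1r (-2.82 ± 0.70) and Lyz2 (-1.48 ± 0.49), and 1 was higher, Laptm5 (3.13 ± 0.36). Over all genes 36.4% were called. The difference of Lyz2 did not pass without day 3 (edgeR adjusted p = 0.067), 5, 6 or 7.

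Genes of the cell cycle were higher without Esrrb. Of 30 DNA replication genes, 29 were higher and 0 lower (background 16.9% higher), 19 of them on all 8 days. The median log2 fold change was 1.30. Uhrf1, which couples DNA methylation to replication, was at 175 to 320 CPM (median 273) without Esrrb and 26.0 to 58.0 CPM (median 36.3) without Glis1, a log2 fold change of 2.69 ± 0.22 (edgeR adjusted p = 1.3e-06). Gins2, a subunit of the replicative helicase, was at 64.7 to 189 CPM (median 115) against 17.6 to 32.5 CPM (median 22), 2.18 ± 0.24 higher (edgeR adjusted p = 1.5e-05). In both genes every library without Esrrb was above every library without Glis1. The helicase subunits Mcm3 and Mcm6 were higher by 1.82 ± 0.20 and 1.75 ± 0.21, and the DNA ligase Lig1 by 1.70 ± 0.22. Rrm2, a ribonucleotide reductase subunit, was the member that did not pass (0.35 ± 0.19, edgeR adjusted p = 0.17).

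Mitosis gave a like count, 29 of 30 higher and 0 lower, with a median of 1.25. Top2a, the topoisomerase that untangles sister chromatids, was at 274 to 522 CPM (median 418) without Esrrb and 44.8 to 201 CPM (median 82.7) without Glis1 (2.18 ± 0.24, edgeR adjusted p = 1.6e-05), with no overlap. The kinases Aurkb (1.88 ± 0.30) and Ttk (1.6 ± 0.30), the condensin subunit Ncapg (1.54 ± 0.29) and the kinesin Kif2c (1.5 ± 0.24) were higher too. The other arms were split: median Top2a was 300.3 CPM without Jdp2 and 34.7 CPM without Sall4, and 28 of the 29 mitosis genes and 24 of the 29 replication genes had 1 of these arms nearer to each compared arm. Adding fragment length as a covariate left 21 replication and 16 mitosis genes higher, and over days 0 to 3 there were 21 and 14.

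Inhibitors of cyclin-dependent kinases and targets of p53 were mostly lower, 13 of 25 against 3 higher, with a median of -0.61. Cdkn1a, the p21 inhibitor that p53 induces, was at 215 to 635 CPM (median 387) without Esrrb and 567 to 2359 CPM (median 1834) without Glis1, lower by -2.04 ± 0.30 (edgeR adjusted p = 0.00015). Cdkn2b, the p15 inhibitor, was at 3.53 to 20.5 CPM (median 8.18) against 35.8 to 62.5 CPM (median 50.8), without overlap (-2.50 ± 0.27). The stress cytokine Gdf15 was lower by -3.61 ± 0.36, the death receptor Fas by -1.97 ± 0.38 and Cdkn2a by -1.56 ± 0.18, while Trp53 itself, which encodes p53, did not pass (0.20 ± 0.13). Cdkn1c, the imprinted p57 inhibitor, was the exception in size: 254 to 2203 CPM (median 1392) without Esrrb against 39.7 to 87.2 CPM (median 50.1) without Glis1, a log2 fold change of 4.46 ± 0.40 (edgeR adjusted p = 2.3e-06) with no overlap. Its median was 676 CPM without Jdp2 and 1836 CPM without Sall4, and the JEGS libraries had 1978, 1103 and 585 CPM, all above the highest library without Glis1.

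**Figure D4:**
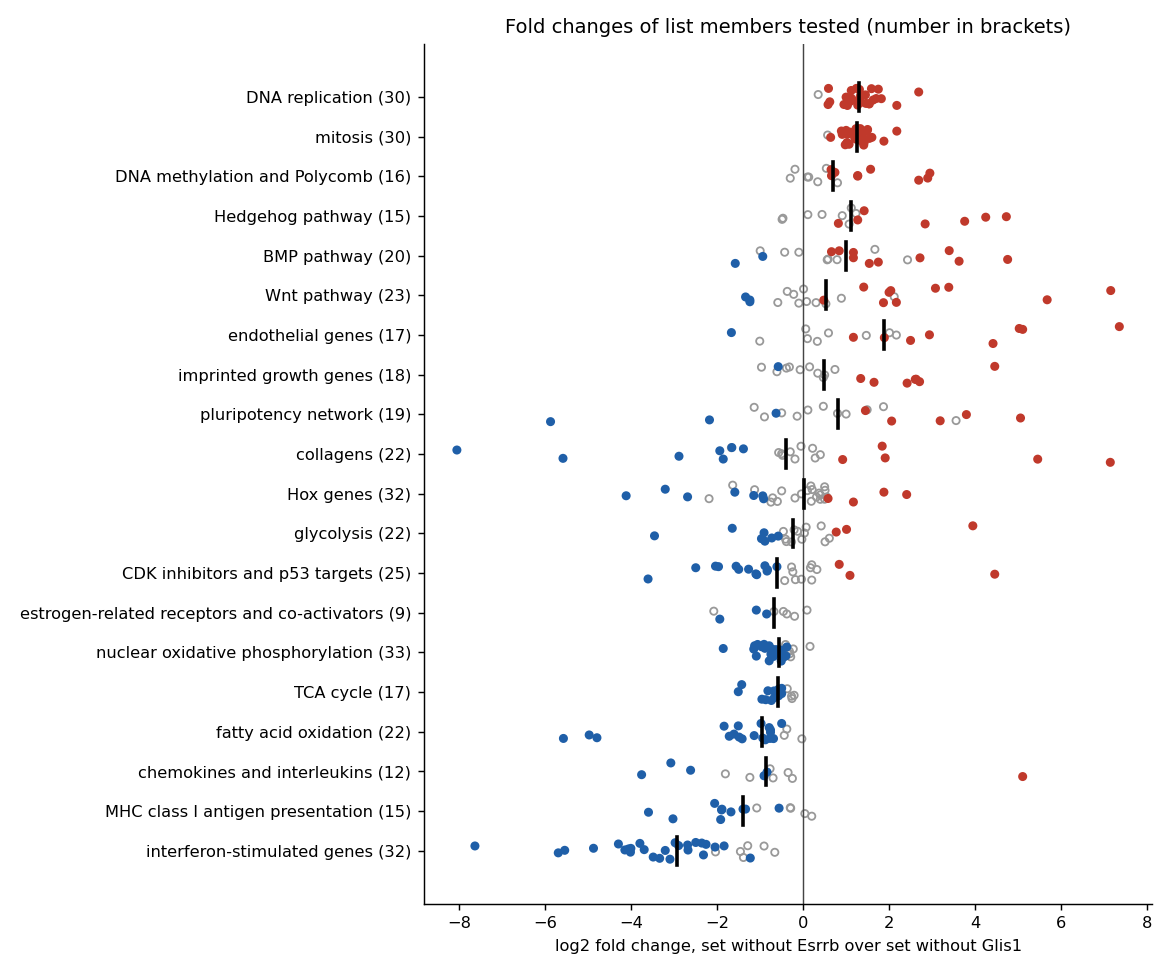
Log2 fold change, without Esrrb over without Glis1, of each tested member of 20 gene lists: filled points passed, open grey points did not, and the black bar is the list's median. DNA replication and mitosis sit to the right of 0 with medians of 1.30 and 1.25, and interferon-stimulated genes to the left with a median of -2.94.

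Imprinted growth genes are expressed from 1 parental copy and act in fetal growth. Of 18 tested, 7 were higher and 1 lower (Ndn, -0.58 ± 0.22, edgeR adjusted p = 0.049) without Esrrb, with a median of 0.48, and the difference rose per day for 8. Igf2, a fetal growth factor, was at 3693 to 4414 CPM (median 4259) without Esrrb and 326 to 2697 CPM (median 508) without Glis1, 2.71 ± 0.31 higher (edgeR adjusted p = 1.7e-05). H19, the noncoding RNA of the same locus, was at 7021 to 16610 CPM without Esrrb and 949 to 4099 CPM without Glis1 (2.63 ± 0.33). Both were without overlap, and both differences rose per day, by 0.37 ± 0.07 for Igf2 and 0.39 ± 0.08 for H19. Median Igf2 was 4584 CPM without Jdp2 and 3912 CPM without Sall4, close to the level without Esrrb. Peg10, derived from a retrotransposon, was higher by 2.61 ± 0.18, Dlk1, a Notch ligand relative, by 2.42 ± 0.23, the growth restrictor Grb10 by 1.65 ± 0.36 and Peg3 by 1.34 ± 0.41. Meg3 (-0.97 ± 0.37) and Igf2r (-0.39) did not pass. Over days 0 to 3 there were 5 higher and 2 lower. No gene was lower with DESeq2 size factors, on log2(TPM + 1) values, after thinning or with fragment length as a covariate, so the call of Ndn was lost in each.

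Writers of DNA methylation and Polycomb proteins were higher in 9 of 16 cases and lower in 0, with a median of 0.70. The de novo methyltransferase Dnmt3b was at 4.55 to 91.4 CPM (median 64.3) without Esrrb and 1.97 to 14.0 CPM (median 6.30) without Glis1 (2.95 ± 0.35, edgeR adjusted p = 2.4e-05). Dnmt1, which maintains methylation, was at 285 to 447 CPM (median 320) against 108 to 192 CPM (median 142), without overlap (1.27 ± 0.17). The Polycomb proteins Phf19 (2.90 ± 0.45), Epop (1.57 ± 0.50) and Ezh2 (1.27 ± 0.26) were higher. In the NuRD complex, the partner of Sall4, 6 of 13 were higher and 2 lower, with Mta1 higher by 0.94 ± 0.13, Hdac1 by 0.86 ± 0.15, Rbbp4 by 0.82 ± 0.14, Mta2 by 0.55 ± 0.12 and Chd4 by 0.43 ± 0.14. The difference of Epop did not pass without day 2, 3, 4 (edgeR adjusted p = 0.078) or 5, nor the difference of Chd4 without day 1, 3, 4, 5, 6 (edgeR adjusted p = 0.078) or 7. With fragment length as a covariate the counts were 5 higher of 16 and 3 higher of 13.

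Pluripotency genes were low in both arms and did not move as a block. Of 27 listed genes 19 were tested, 5 were higher and 3 lower without Esrrb, with a median of 0.80, and the other 8 were under the threshold for testing. The share called is near the 36.4% over all genes. Nr0b1, a nuclear receptor partner of Esrrb in embryonic stem cells, had 2 counts without Esrrb and 217 without Glis1, an inverse ratio of 85.9 (23.5 to 714). It was at 0 to 1.27 CPM (median 0) and 0 to 20.5 CPM (median 13.1), both arms being at 0 on day 0, and its median was 4.61 CPM without Jdp2 and 11.1 CPM without Sall4. Tfcp2l1, another self-renewal factor, was lower by -2.18 ± 0.39 and Klf5 by -0.63 ± 0.22. Sall1, a relative of Sall4, was at 5.31 to 179 CPM (median 94.1) without Esrrb and 0.437 to 3.57 CPM (median 2.48) without Glis1, a log2 fold change of 5.06 ± 0.48 (edgeR adjusted p = 4.2e-06) with no overlap. Sox2 was at 0 to 39.4 CPM (median 26.5) against 0.5 to 8.51 CPM (median 1.37), 3.19 ± 0.50 higher, and the RNA-binding Lin28a was 3.80 ± 0.69 higher.

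Pou5f1, the gene behind the fluorescent reporter, was at 3.04 to 22.3 CPM (median 11.4) without Esrrb and 0 to 11.1 CPM (median 2.75) without Glis1, 2.06 ± 0.49 higher (edgeR adjusted p = 0.0049), against 16.2, 104 and 372 CPM in the JEGS libraries of days 2, 4 and 6. Nanog reached at most 4.38 CPM in either arm and did not pass (1 ± 0.83, edgeR adjusted p = 0.38), against 6.95, 38.6 and 145 CPM in JEGS. Neither arm reached the day 6 JEGS level of Pou5f1 or Nanog on any of the 8 days.

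Wnt and BMP pathway genes were more often higher than lower without Esrrb. Of 23 Wnt genes, 10 were higher and 3 lower, with a median of 0.53. Beside Wif1, described above, Rspo1, an amplifier of Wnt signals, was at 5.31 to 51.5 CPM (median 24.6) without Esrrb and 0 to 3.45 CPM (median 0) without Glis1 (5.68 ± 0.77, edgeR adjusted p = 7.7e-05). The feedback inhibitors Nkd2 (3.39 ± 0.49) and Notum (3.08 ± 0.41), the transcription factor Lef1 (2.17 ± 0.23) and the general target Axin2 (0.48 ± 0.16) were higher. The secreted inhibitors Dkk3, Sfrp1 and Sfrp2 were the 3 lower genes, at -1.34 ± 0.33, -1.24 ± 0.40 and -1.24 ± 0.25. Of 20 BMP genes, 10 were higher and 2 lower, with a median of 1. Msx1, a homeobox target, was at 56.9 to 247 CPM (median 206) against 2.04 to 14.0 CPM (median 6.03), 4.76 ± 0.36 higher (edgeR adjusted p = 5.1e-07) with no overlap. Hey1 (3.63 ± 0.41), the antagonist Nog (3.40 ± 0.56), Dlx2 (2.72 ± 0.58) and the ligand Bmp7 (1.75 ± 0.37) were higher. The antagonist Grem1 (-1.58 ± 0.41) and Id4 (-0.94 ± 0.19) were lower. When fragment length was a covariate, 10 Wnt genes were higher and 2 lower, against 4 higher and 0 lower BMP genes.

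Genes of vessels were higher in 8 of 17 cases and lower in 1 (Esam, -1.67 ± 0.32), with a median of 1.89. Plvap, of endothelial diaphragms, was at 51.3 to 315 CPM (median 272) without Esrrb and 20.5 to 34.0 CPM (median 23.2) without Glis1 (2.94 ± 0.33, edgeR adjusted p = 1.7e-05), without overlap. The junction genes Cldn5 and Cdh5 were higher by 5.11 ± 0.54 and 5.03 ± 0.45, at medians of 12.7 and 13.9 CPM against 0, and Tie1 had a ratio of counts of 26.5 (8.67 to 132). Pecam1, Kdr, Flt1 and Tek did not pass. The 7 defining endothelial markers summed to 15.9 to 269 CPM without Esrrb and 16.8 to 125 CPM without Glis1, none at 0. Over days 0 to 3 the count was 4 higher and 1 lower.

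Of 24 fibroblast and mesenchymal genes, 4 were higher and 5 lower without Esrrb, shares close to the 16.9% and 19.5% over all genes. Snai1, a repressor of epithelial genes, was at 131 to 225 CPM (median 167) without Esrrb and 9.92 to 62.1 CPM (median 17.8) without Glis1, 3.22 ± 0.31 higher (edgeR adjusted p = 4.3e-06) with no overlap. Pdgfra (1.83 ± 0.42), Snai2 (1.74 ± 0.62) and Twist2 (1.41 ± 0.22) were higher, and Prrx1, of limb mesenchyme, was lower by -1.33 ± 0.25. The difference of Snai2 did not pass when any 1 of days 2 to 7 was left out (edgeR adjusted p = 0.11 without day 5). Of 22 collagens, 5 were higher and 7 lower, with a median of -0.39. Besides the genes above, Col9a1 of cartilage was higher by 5.46 ± 0.80 and Col12a1 lower by -2.89 ± 0.22, while Col1a1 and Col1a2, the main fibroblast collagens, did not pass. In the cartilage and bone list 7 of 19 were higher and 5 lower, led by the osteoblast factor Sp7 (5.49 ± 0.42), Matn1 (4.91 ± 0.63), Comp (3.18 ± 0.42) and Dlx5 (3.01 ± 0.80).

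Hox genes, which keep positional identity, gave 4 higher and 7 lower of 32, with a median of 0.03, which is near the 16.9% and 19.5% over all genes. The lower ones included neighbours at the 5′ end of the Hoxd cluster. Hoxd12 was at 0 to 3.18 CPM (median 1.17) without Esrrb and 14.1 to 34.0 CPM (median 22.8) without Glis1, -4.12 ± 0.41 on the log2 scale (edgeR adjusted p = 5.8e-06). Hoxd10 (-3.21 ± 0.41), Hoxd11 (-2.69 ± 0.38) and Hoxd13 (-1.59 ± 0.35) were lower too, and Hoxd10, Hoxd11 and Hoxd12 had no overlap. Hoxc9 (2.41 ± 0.43) was higher, and with fragment length as a covariate there were 0 higher and 4 lower.

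Plasminogen activators, metalloproteinases and genes listed with them were lower in 6 of 17 cases and higher in 1, near the 36.4% called over all genes. The macrophage elastase Mmp12 had no count without Esrrb against 80 and was at least 21.1-fold lower, and Spp1 (osteopontin, -3.03 ± 0.36), the plasminogen activator Plau (-2.65 ± 0.31) and Timp2 (-1.21 ± 0.34) were lower, while the gelatinase Mmp9 was higher by 3.21 ± 0.29. Epithelial genes gave 5 higher and 6 lower of 24, near the 16.9% and 19.5% over all genes. The keratins Krt19 (3.02 ± 0.37), Krt7 (2.99 ± 0.55) and Krt8 (2.72 ± 0.73) were higher, and the junction genes Marveld3 (-4.08 ± 0.34) and Cldn3 (-2.46 ± 0.24) were lower. Krt19 was at 28.2 to 154 CPM (median 72.7) against 4.21 to 21.3 CPM (median 8.59), and Marveld3 at 0 to 2.81 CPM (median 1.47) against 3.45 to 36.2 CPM (median 29.7). Neither overlapped. The 6 epithelial markers, which include Krt8 itself, summed to 123.8 to 633.6 CPM without Esrrb and 28.6 to 271.4 CPM without Glis1. Their sum is therefore not separate from the keratin values, and their part in these values was not tested. Median Krt19 was 465 CPM without Jdp2 and 115 CPM without Sall4.

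Among glycolysis genes the hexokinases went in opposite directions. Hk1 was at 19.4 to 72.9 CPM (median 43.0) without Esrrb and 228 to 558 CPM (median 511) without Glis1, without overlap (-3.46 ± 0.27, edgeR adjusted p = 6.7e-07), and Hk2 was higher without Esrrb by 1.01 ± 0.15. The lactate exporter Slc16a3 was higher by 3.95 ± 0.69, a call that was lost with fragment length as a covariate, and Aldoc (-1.65 ± 0.37) and Pfkp (-0.97 ± 0.21) were lower, so that 3 of 22 were higher and 7 lower. This count and those of the lists that follow stand beside 36.4% called over all genes. In cholesterol synthesis 2 of 20 were higher and 6 lower, with Hsd17b7 at -1.07 ± 0.19 and Dhcr7 at 1.01 ± 0.20. With fragment length as a covariate 1 was higher and 0 lower, and the median went from -0.17 to 0.07. Of 18 glutathione and NRF2 target genes, 3 were higher and 7 lower. Nqo1, a quinone reductase, was lower by -2.69 ± 0.41 and the transferase Gsta4 higher by 1.91 ± 0.23, neither with overlap. Among 11 adipocyte genes 1 was higher and 4 lower, including the desaturase Scd1 (-2.37 ± 0.27) and the lipase Lpl (-1.94 ± 0.21). Scd1 was at 162 to 609 CPM (median 408) against 381 to 2952 CPM (median 2306).

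Lists of other tissues held calls in both directions, to be read against 36.4% called over all genes. Aqp5, a water channel of salivary and lung cells listed beside the Dcpp genes, was at 3.04 to 27.6 CPM (median 18.0) without Esrrb and 69.5 to 745 CPM (median 394) without Glis1 (-4.47 ± 0.27, edgeR adjusted p = 8e-08), opposite to Dcpp1, and that list gave 3 higher and 2 lower of 6. Of 10 beta cell and pancreas genes, 4 were higher and 1 lower. Beside Ins2, Ppy had 66 counts against 1, a ratio of 83.4 (14.5 to 3342), and Chga, a secretory granule protein, was higher by 4.36 ± 0.63. Of 11 trophoblast genes 3 were higher and 4 lower, with Gata2 higher by 4.68 ± 0.38, at 60.1 to 134 CPM (median 76.8) against 1.31 to 14.3 CPM (median 2.15), and Eomes lower by -2.28 ± 0.43. Primitive endoderm gave 5 higher and 3 lower of 16, with Sparc, a matrix protein, at -1.84 ± 0.22. Smooth muscle and YAP targets gave 4 higher and 7 lower of 19, with Smtn at 1.70 ± 0.15 and Tpm2 at -1.63 ± 0.36. In each of the last 2 lists 1 gene was higher and 2 lower with fragment length as a covariate.

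The remaining lists are given by their counts, with the same 36.4% as background. AP-1 subunits, which Jdp2 opposes, gave 1 higher and 3 lower of 16, with Maf at -1.70 ± 0.23 and Fos at -1.24 ± 0.34. The ATF4 and unfolded protein list gave 3 higher and 3 lower of 20, with Ddit3 at -1.89 ± 0.38. Ribosomal proteins gave 4 higher and 0 lower of 25, against 16 higher on log2(TPM + 1) values and 0 in either direction with fragment length as a covariate or over days 0 to 3. Neural genes gave 1 higher (Nes, 2.26 ± 0.25) and 1 lower (Mapt, -2.15 ± 0.57) of 12, skeletal muscle 2 higher and 1 lower (Ckm, -2.86 ± 0.73) of 8, and keratinocyte genes 3 higher and 3 lower of 11, with Perp at -1.27 ± 0.18. Germ line genes gave 1 higher (Tdrkh, 1.6 ± 0.26) and 0 lower of 5. The alpha globin genes Hba-a2 (-3.68 ± 0.58) and Hba-a1 (-2.83 ± 0.51), which share reads, were the 2 lower of 6 red blood cell genes, with 1 higher. The 2-cell stage list gave 0 higher and 2 lower of 6, both Usp17 paralogs of uncertain counts, and 5 sex-linked genes gave 0 in either direction.

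Both tests were passed by 729 genes. The steepest rises per day without Esrrb relative to without Glis1 included Bmf, a pro-apoptotic gene, which was at 0 CPM at the start and at 52.9 CPM on day 7 without Esrrb and went from 16.8 to 7.23 CPM without Glis1, a slope of 1.31 ± 0.18 log2 per day (edgeR adjusted p = 0.00042). Averaged over the 8 days Bmf did not pass (-0.19 ± 0.86, edgeR adjusted p = 0.89). Col9a1 went from 6.83 to 418 CPM without Esrrb and rose by 1.14 ± 0.20. The slopes of Rspo1 (2.47 ± 0.38) and Col8a2 (2.11 ± 0.47) turned to -0.32 and -0.17 without day 0. The steepest falls were in Slc18a3, the vesicular acetylcholine transporter (-3.25 ± 0.44), the homeobox gene Tlx2 (-2.04 ± 0.34), Psors1c2 (-1.99 ± 0.34) and Oas1g (-1.98 ± 0.35), an interferon gene whose reads are shared with its paralogs. Thrsp, a regulator of lipid synthesis, went from 0 to 48.5 CPM without Glis1 and had 3 counts over all libraries without Esrrb, an inverse ratio of 161.8 (55.1 to 787) and a slope of -1.94 ± 0.50. The slope of Thrsp was -1.01 without day 2 and did not pass there or without day 6.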

How the data were processed

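Each library came with an RSEM gene table. Per the file headers, the authors deposited expected counts (estimated counts, of which 4.99% of values were not whole), TPM and FPKM, both scaled for transcript length and library; FPKM was not used. The submitters' processing notes name bcl2fastq, Bowtie2, RSEM and mm10. Versions and annotation are not given in the sources used here. Of 54752 identifiers 54723 matched a symbol, and no pair of libraries held identical counts.

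Arms and days came from sample names. The treatment label gives all 4 factors to every sample. The labels name a pair of kits and runs without assigning them, so no batch term was fitted.

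Expected counts were rounded and tested with edgeR 4.0.16 (R 4.3.3) on genes that reached 1 CPM in 3 or more of the 16 libraries: TMM normalization, day as a factor, two-sided quasi-likelihood F test. The change per day was an arm-by-day term. Printed CPM use TMM factors over all 35 libraries. Where an arm had no count, folds are bounds from a floor of 3 counts over the arm; exact 95% intervals and floors cover counting error only. On simulated counts (16801 genes), 66 of 100 changes of 2-fold and 96 of 100 of 4-fold were recovered, with 11 false among 173 calls. For the change per day, 3 of 100 slopes of 0.25 and 62 of 100 of 0.5 log2 per day were recovered, with 5 false among 70 calls. Only these genes, each with a mean of at least 5 CPM, were changed, and all others had equal means in both arms. No difference in fragment length was simulated, so the false calls in the data may be more.

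The members and 45 gene lists (859 genes) were chosen with earlier results of these data known. The rule for named genes took the 4 factors, up to 5 passing members with the largest change per list, the 12 largest changes per direction (mean of at least 5 CPM, same sign on 8 days, no predicted genes) and the 5 steepest slopes per direction. Every other gene named was chosen after its values were seen. Alternatives were DESeq2 1.42.0, its size factors, limma 3.58.1 on log2(TPM + 1), no filter, no day term or factor, all 32 leave-out libraries, subsets of days, each day left out, an added arm-by-day term, log2(day + 1), fragment length as a covariate and thinning to 1300000 counts. For the gene lists, thinning, fragment length, all 32 libraries and days 1 to 7 were added after seeing the data. Promoters are RefSeq windows of GRCm38.p6. Some members counted in the lists are not reported here by name.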

Additional observations from a re-analysis of the deposited data

Results flagged for a closer look

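A library was marked where its gap to the nearest other library of its arm, divided by the arm's range over 8 days, was above Dixon's 95% critical value. This held in 19 of 108 groups, and chance marks about 1 in 20. The 8 libraries of an arm are different days, so a first or last day can lie apart as part of a time course.

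Without Esrrb, the day 2 library had 57.88 CPM of Esrrb, above the next value of 19.01, and the day 0 library had 14619 genes with a count, the lowest of its arm. On day 0 the mean log2(CPM + 1) without Esrrb was low for the Hedgehog pathway (4.46) and the demilune cell family (2.39), and high for chemokines and interleukins (4.8), the ATF4 and unfolded protein response (5.98) and smooth muscle and YAP targets (8.72).

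Without Glis1, the day 0 library had 4.436 CPM of Glis1, above the next value of 1.173. On day 0 the list mean there was high for the Hedgehog pathway (4.45), smooth muscle and YAP targets (8.25) and imprinted growth genes (7.6), and low for glycolysis (7.18), cholesterol synthesis (6.17), the demilune cell family (1.12) and red blood cell genes (0.29). On day 7 it was high for endothelial genes (2.85), primitive endoderm genes (5.14), trophoblast genes (2.98) and DNA methylation and Polycomb genes (5.3).

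The difference between the arms changed with day, by the test of the arm-by-day term, most steeply in 10 genes, here in log2 per day. It rose without Esrrb for Rspo1 (2.47), Col8a2 (2.11), Bmf (1.31), Col9a1 (1.14) and Fgf11 (1.1). It fell for Slc18a3 (-3.25), Tlx2 (-2.04), Psors1c2 (-1.99), Oas1g (-1.98) and Thrsp (-1.94).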

How the results depend on the processing

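The number of genes differing between the arms without Esrrb and without Glis1 moved by over 1.5 times under 2 alternatives. Over days 0 to 3 there were 2819, of which 1259 were genes higher without Esrrb than without Glis1 and 1560 were genes lower without Esrrb than without Glis1, while days 4 to 7, with as many libraries, gave 5834. With fragment length as a covariate there were 2284 (989 higher, 1295 lower). The cause was not tested in either case. Leaving out each day in turn gave 4976 to 6626 genes, 2204 to 3209 higher and 2772 to 3417 lower. The number of genes whose difference between the arms changes with day was 479 on log2(TPM + 1) (193 genes whose difference rises with day and 286 genes whose difference falls with day) and 2586 with all 32 libraries (1073 rising, 1513 falling). Leaving out each day gave 662 to 1217, 243 to 550 rising and 419 to 731 falling, the lowest without day 6. Over days 0 to 3, Sall4 reversed to 0.02 and Sox7 to -0.12. Leave-one-out values of Sall4 were -0.45 to -0.22, and those of the slopes of Rspo1 -0.32 to 3.15 and of Col8a2 -0.17 to 3.06, reversed without day 0. Of 213 named genes, 75 lost their call with fragment length as a covariate, 55 over days 0 to 3 and 20 over days 4 to 7. The libraries of the arms were paired by day, the block of the fit, and without a day term 6156 genes passed, 5508 of them among the 6108. No paired analysis was possible beyond this, because the numbers that the arms share are the days themselves.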
